A study of Bombyx mori with 2 samples.

Results

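Spliced loci of the silkworm *Bombyx mori* whose exons overlap on opposite strands of the genome were described in RNA from hindwing and forewing buds. Such a pair was taken wherever a spliced locus on the plus strand and a spliced locus on the minus strand had at least 1 exon base in common. Loci were built from the multi-exon, stranded transcripts of both deposited assemblies, joined when they shared an exon base on the same strand. Among 11987 spliced loci, 1560 (13.0%) belonged to 795 such pairs, on 160 scaffolds. Of these loci, 772 lay on the plus strand and 788 on the minus strand, 1530 had 1 partner and 30 had 2.

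The hindwing library was made from 80 pooled buds of the third thoracic segment, and the forewing library from 80 pooled buds of the second thoracic segment. All buds came from untreated larvae of the Daizo strain in the IV instar, fed on mulberry leaves. There was 1 library per wing bud and thus no replicate, so every difference given here is between these 2 libraries, with no p-value. The ratios of hindwing to forewing ask whether a locus is used differently in the hindwing bud than in the forewing bud, since the study found the Hox protein Ultrabithorax strongly expressed in the hindwing bud. In whole buds, fewer cells of a type and less RNA per cell cannot be told apart. The assemblies number their loci and carry no gene names, so pairs are named by scaffold and position as deposited, with the build not given in the sources used here, and the tissue could not be checked against marker genes.

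Depth was estimated at 43528000 fragments for hindwing and 37193000 for forewing. Of the fragments in assembled transcripts, 82.0% in hindwing and 84.2% in forewing lay in spliced, stranded transcripts. Levels are given in FPM, the fragments of a locus per 1000000 fragments of its library, computed as the midpoint of the deposited FPKM bounds times exon length in kb. Ranges in brackets are the deposited bounds on the same scale, so they hold the error of counting and of assigning fragments, not that between animals.

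When neighbouring genes are transcribed from opposite strands, their transcripts can be complementary to each other over the bases they share. In tail-to-tail (convergent) pairs the 3' ends overlap, in head-to-head (divergent) pairs the 5' ends overlap, and in contained pairs one locus lies within the span of the other. In *Drosophila*, complementary transcripts are known to form double-stranded RNA that Dicer-2 can cut into endogenous small interfering RNA, and long 3' untranslated regions of convergent genes are a common place for it. The library kit used here does not keep the strand of a fragment. The strand of an assembled transcript was read from its splice sites, and a fragment that falls within an overlap, away from any intron, cannot be given to either strand by itself.

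Most pairs overlapped by their ends. There were 524 tail-to-tail pairs (65.9%), 201 contained pairs (25.3%) and 70 head-to-head pairs (8.81%). The shared exon bases ranged from 8 to 21208, with a median of 1930 and quartiles of 878 and 3493.5. Tail-to-tail pairs shared a median of 2083.5 bases and contained pairs 2122 bases, whereas head-to-head pairs shared a median of 563 bases. In 571 pairs the overlap reached 1000 bases, among them 391 tail-to-tail, 157 contained and 23 head-to-head pairs. Only 20 pairs shared fewer than 100 bases.

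**Figure D1:**
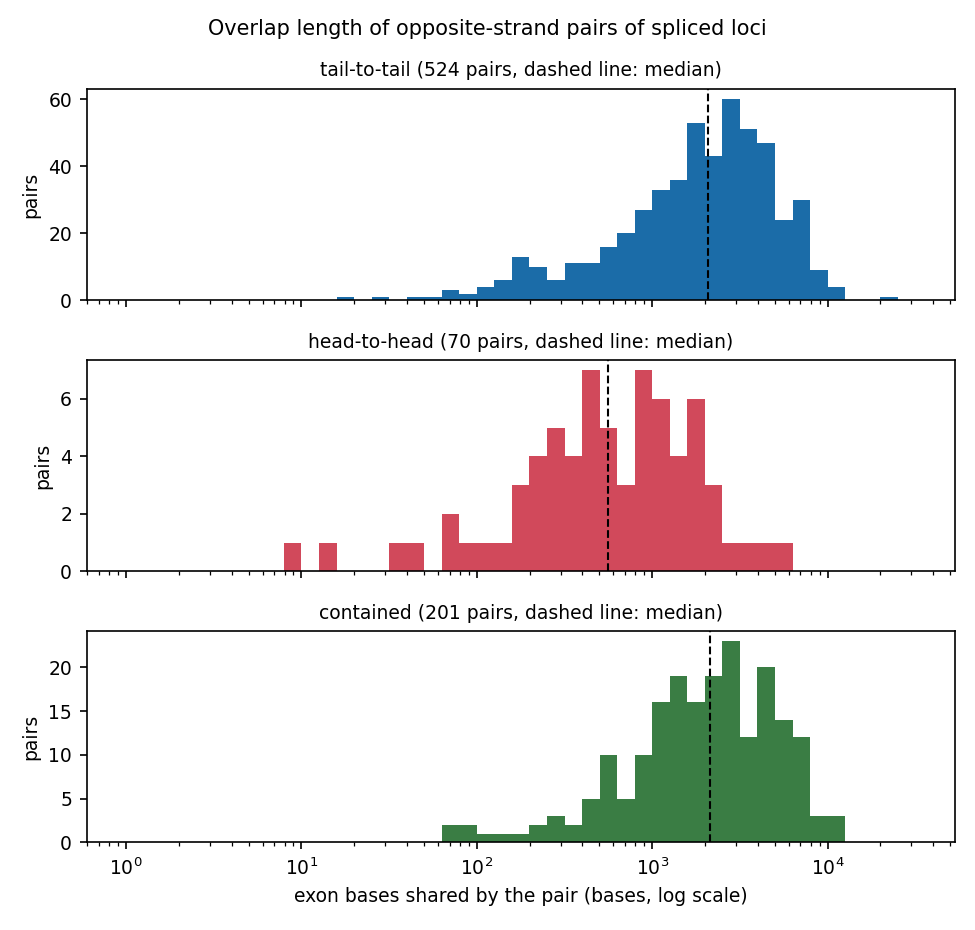
Number of pairs (y axis) by exon bases shared between the strands (x axis, log scale), in panels for the 524 tail-to-tail, 70 head-to-head and 201 contained pairs. The dashed medians lie at 2083.5, 563 and 2122 bases, and the only overlap beyond 20 kb is a tail-to-tail pair of 21208 bases.

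The overlaps were a large part of the loci that held them. The shared bases made up a median of 77.7% of the exon bases of the shorter locus and 40.2% of those of the longer locus. By class, the median share of the shorter locus was 74.4% in tail-to-tail, 39.3% in head-to-head and 98.6% in contained pairs. In 303 pairs the overlap took at least 50% of the exon bases of both loci, and in 12 pairs at least 90% of both.

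The overlap of tail-to-tail pairs lay mostly in the last exons, where 3' untranslated regions are found. Of the bases shared by these pairs, 81.0% lay in last exons of both loci, with a median of 94.5% per pair. The overlap touched the last exons of both loci in 512 of 524 pairs and lay wholly inside them in 237. Of the 70 head-to-head overlaps, 66 touched the first exons of both loci and 44 lay wholly inside them. The overlap was split into several blocks in 491 pairs, up to 16 blocks. In 495 pairs an exon on 1 strand ran across a whole intron of the partner, up to 14 introns at once, and in 123 pairs this held in both directions. No intron with the same start and end was given to both strands. Of the contained pairs, the plus-strand locus was the inner one in 83, the minus-strand locus in 114, and in 4 the loci had the same span. Start or end, but not both, was shared to the base in 113 of the 201.

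At the lower limit of the rule, 21 pairs shared up to 100 bases. The smallest overlap, of 8 bases on nscaf2930, was head-to-head and was present only after the assemblies were joined. The plus-strand locus held these bases in forewing only and the minus-strand locus in hindwing only. There the plus-strand locus (bases 1824525 to 1831595) had 19.3 FPM (17.8 to 20.8) in hindwing and 16.3 FPM (13.9 to 18.6) in forewing. Its minus-strand partner (bases 1816941 to 1824532) had 33.7 FPM (31.5 to 35.8) in hindwing and 61.1 FPM (57.7 to 64.6) in forewing. Just outside the limit, 68 neighbours on opposite strands had a gap of at most 100 bases and no shared base, and 105 opposite-strand loci overlapped in span with no exon base in common.

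Member loci were longer and had more fragments than the other spliced loci. They had a median of 4133 exon bases, against 1869 for the 10427 spliced loci in no pair, while their median number of exons was 4 against 5. Median span was 7.63 kb in members and 6.46 kb in the others. The median level, in fragments and not per length, was 41.8 FPM in hindwing and 43.2 FPM in forewing for members. For spliced loci in no pair it was 17.1 FPM in hindwing and 18.1 FPM in forewing. Members held 14.5% of the fragments of spliced loci in hindwing and 14.2% in forewing. A long locus has more bases with which to overlap a neighbour, so the rule itself favours length.

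Many pairs overlapped in each library by itself. In 421 pairs the exons of opposite strands overlapped within the hindwing assembly and also within the forewing assembly. In 176 pairs they did so in the hindwing assembly only, in 134 in the forewing assembly only, and in 64 only after the assemblies were joined. Head-to-head pairs were seldom assembled in both, 14 of 70, against 304 of 524 tail-to-tail and 103 of 201 contained pairs. Of the 421, 248 had overlap lengths within 1.2 times of each other and 14 had the same length to the base, with 213 longer in hindwing and 194 longer in forewing. The overlaps came to 1405 kb in the hindwing assembly, 1314 kb in the forewing assembly and 2015 kb in the joined loci.

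The overlapping transcripts were rarely minor forms, but many loci had few forms to choose from. Members had a median of 2 forms over both libraries together, and a locus with a single form in a library has all its fragments in it. Among the loci that overlapped within the hindwing assembly, the forms that reached the partner held all fragments of the locus for 92.5% of 1194 loci. In the forewing assembly this held for 95% of 1110 loci.

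Partners differed by about 2-fold in the typical pair. Both loci of a pair had a transcript in 697 pairs in hindwing and 662 in forewing. The median level of the higher locus was 64.1 FPM in hindwing and 64.7 FPM in forewing, and that of the lower locus was 27.9 FPM in hindwing and 28.9 FPM in forewing. The higher locus exceeded the lower one by a median of 2.1-fold in hindwing and 2.17-fold in forewing, counted in fragments. Partners lay within 2-fold of each other in 46.1% of pairs in hindwing and 46.1% in forewing, and their intervals were apart in 613 of 697 pairs in hindwing and 587 of 662 in forewing. Differences of 10-fold or more were found in 31 pairs in hindwing and 25 in forewing. By the midpoint of the bounds per kb of transcript, with no multiplication by length, the median of the higher over the lower locus was larger, 2.82-fold in hindwing against 2.1-fold in fragments, both over the pairs kept for the ratios below.

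Over all pairs the plus-strand locus was the higher one in 343 of 697 in hindwing and in 331 of 662 in forewing. In head-to-head pairs it was higher in 35 of 55 in hindwing and in 34 of 53 in forewing. Head-to-head partners stood further apart in fragments, by a median of 2.50-fold in hindwing and 2.85-fold in forewing. In contained pairs the inner locus was the higher one in 77 of 163 pairs in hindwing and in 64 of 147 in forewing. Both partners reached 50 FPM in 169 pairs in hindwing and 167 in forewing, and their exons overlapped within that library in 152 of these in hindwing and 155 in forewing. The order of the partners changed between the wing buds in 88 of the 574 pairs (15.3%) with a transcript of both loci in both libraries, and in 45 of these the partners' intervals were apart in each library.

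The hindwing to forewing ratios of partners mostly went in opposite directions. The ratio was log2((hindwing + 1)/(forewing + 1)) in FPM, and a pair was kept if both loci reached 1 FPM in a library, which left 777 pairs. In 262 of them (33.7%) both loci leaned the same way, 146 to the hindwing and 116 to the forewing, and in 515 they leaned in opposite ways. Across the 777 pairs the ratios of the plus-strand and the minus-strand locus had a Pearson's r of -0.26 and a Spearman's rho of -0.48. These are descriptions over pairs of the same 2 libraries, and partners share bases whose fragments carry no strand of their own.

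Neighbours that share no base did not show this. Among opposite-strand neighbours less than 1 kb apart, 59.1% of 296 tail-to-tail and 53.9% of 284 head-to-head pairs leaned the same way, as did 55.4% of 1458 neighbours on the same strand. Together the 580 opposite-strand neighbours had an r of -0.01 and a rho of 0.12. The lower share in overlapping pairs was found in each class, with 34.0% of 518 tail-to-tail, 44.8% of 67 head-to-head and 29.2% of 192 contained pairs leaning the same way.

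**Figure D2:**
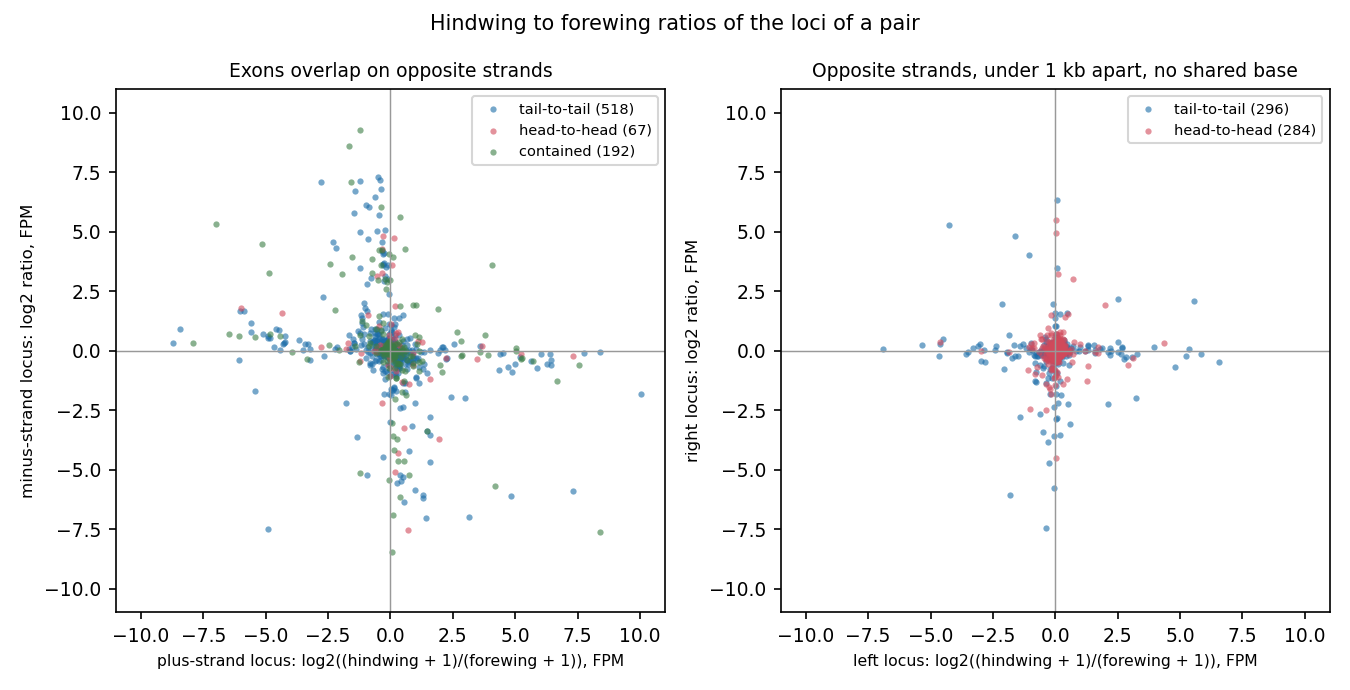
Log2 ratio of hindwing to forewing FPM of 1 locus of a pair (x axis) and of its partner (y axis), for the 777 overlapping pairs on the left and the 580 opposite-strand neighbours less than 1 kb apart with no shared base on the right, coloured by class. Overlapping pairs fill the upper left and lower right of the plot (515 of 777), whereas neighbours lie mainly around 0 and along the axes, with 328 of 580 leaning the same way.

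The scale of the level matters to this comparison. By the deposited FPKM, 46.6% of the same 777 pairs leaned the same way, against 49.7% of tail-to-tail, 54.9% of head-to-head and 51.0% of same-strand neighbours, and overlapping pairs had an r of -0.17 and a rho of -0.11. By the midpoint of the bounds with no multiplication by length it was 45.9% in overlapping pairs, against 54.4%, 55.6% and 52.3% in the same sets of neighbours. With no multiplication by length, r was -0.17 and rho -0.11. The share in overlapping pairs was thus below 50% on each scale, but the distance from the neighbours was smaller and rho was nearer to 0 where levels were per length.

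The share leaning the same way was lower among pairs that shared at least 1000 bases, with no steady order above that. Ratios leaned the same way in 50% of 72 pairs that shared fewer than 300 bases and in 45.3% of 137 pairs that shared 300 to under 1000 bases. The share was 26.7% of 187 pairs from 1000 to under 2000 bases, 35.2% of 213 pairs from 2000 to under 4000 bases and 23.2% of 168 pairs from 4000 bases on. Pearson's r did not follow this, at -0.52 under 300 bases and between -0.27 and -0.18 in the longer groups. Spearman's rho was -0.24 and -0.21 in the groups under 1000 bases and between -0.61 and -0.48 above. The share leaning the same way was also lower where the assemblies differed. Of pairs overlapping in both assemblies, 38.9% of 419 leaned the same way. The share was 29.2% of 168 pairs in the hindwing assembly only and 27.3% of 128 in the forewing assembly only. It was 24.2% of 62 pairs in neither by itself. Those 62 are pairs only because the assemblies were joined, which favours partners with complementary gaps and so opposite directions. Even among the 185 pairs whose loci both had a mean assembled length within 1.2 times between the libraries, 42.2% leaned the same way, against 58.9% of 209 opposite-strand neighbours of like length.

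Counted over all members, loci of overlapping pairs passed 2-fold more often than other loci. Few did so in pairs whose loci both had like assembled length. Of the 1540 members with at least 1 FPM in a library, 354 (23%) differed at least 2-fold. Hindwing was higher in 181 of them (11.8%) and forewing in 173 (11.2%). Over all 11041 spliced loci kept, 14.1% differed at least 2-fold, of which hindwing was higher in 6.02% and forewing in 8.12% of loci. Over the 9501 loci in no pair, 12.7% did, with hindwing higher in 5.09% and forewing in 7.62%. The intervals of the libraries were apart at 64.1% of members and at 43.4% of all spliced loci. Members held more fragments, which narrows intervals relative to the level, and the part of this in the difference was not tested. Every called member had intervals apart, as had 1561 of the 1562 called among all spliced loci. Most called loci were assembled unlike in the wing buds, among members and among all spliced loci. Of the 354 called members, 212 had a spliced transcript in only 1 library. In all, 324 had that or a mean assembled length that differed by more than 1.2 times. Of the 1562 called among all spliced loci, 732 were assembled in both libraries, and 175 had like length as well. Among loci assembled in both libraries, 142 of 1328 members (10.7%) passed 2-fold, against 7.17% of all spliced loci so assembled. With like length as well, 30 of 716 members (4.19%) did, against 2.76% of all such loci. Where both loci of a pair had like length, 1.63% of members passed 2-fold, but the 2.76% is over loci filtered singly. Counted as values of pairs, 6 of 370 (1.62%) passed 2-fold, against 6 of 418 (1.44%) in opposite-strand neighbours with both loci of like length. The median log2 ratio was 0.02 over members and -0.00 over all loci.

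The sum of a pair differed far less than its parts. With the FPM of both strands added before the ratio was taken, 34 of 777 pairs (4.38%) differed at least 2-fold, against 365 of the 1554 single-locus values (23.5%). The median size of the ratio was 1.1-fold for sums and 1.25-fold for single loci. When the 580 opposite-strand neighbours were added in the same way, the share past 2-fold was 7.41%, against 12.8% of their single values, and the median size was 1.12-fold against 1.14-fold. The classes are mixed differently in the 2 sets. Tail-to-tail pairs went from 20.9% for single values to 3.09% for sums when overlapping, and from 18.2% to 11.1% as neighbours. Head-to-head pairs went from 28.4% to 4.48% when overlapping, and from 7.22% to 3.52% as neighbours. Of the 61 overlapping pairs in which both loci passed 2-fold, 53 went in opposite directions and 8 in the same direction. Among the 53, 21 overlapped in neither assembly by itself, where the joining of assemblies favours opposite directions.

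**Figure D3:**
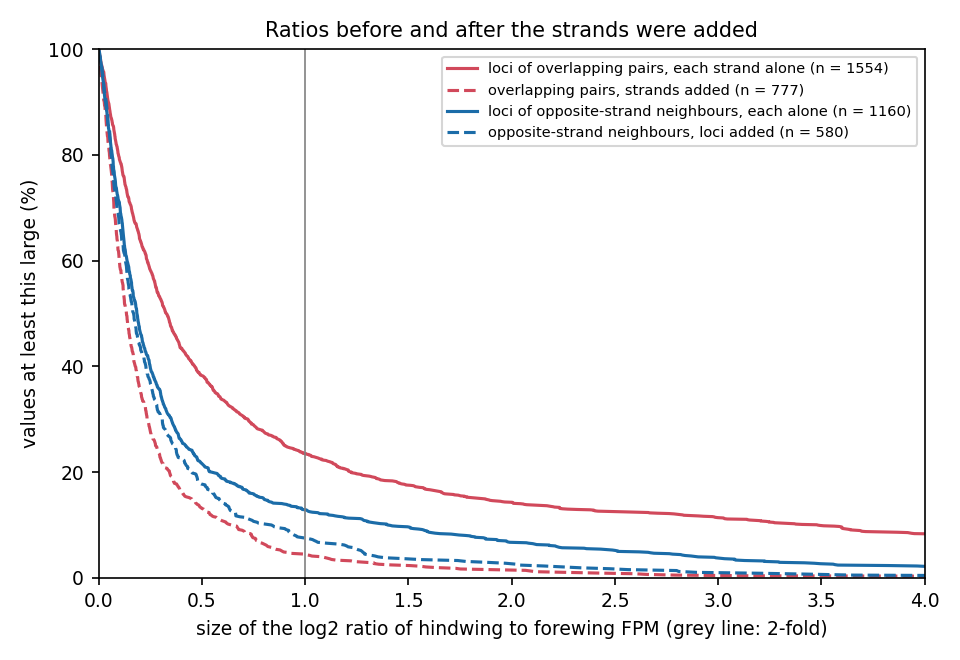
Percent of values (y axis) with at least a given size of the log2 ratio of hindwing to forewing FPM (x axis), for single loci (solid) and for sums of both loci of a pair (dashed), in overlapping pairs (red) and opposite-strand neighbours (blue). At the grey 2-fold line the red curve stands at 23.5% for single loci and 4.38% for sums, and the blue curve at 12.8% and 7.41%. Blue pools 296 tail-to-tail and 284 head-to-head pairs, and red 518 tail-to-tail, 67 head-to-head and 192 contained pairs.

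Some fragments of these places sat in transcripts with no strand. In 262 of the 777 pairs, transcripts of 1 exon and without strand shared bases with the pair's exons in a library. With their FPM added as well, 10 pairs (1.29%) differed at least 2-fold and the median size was 1.08-fold. Of these 10, 5 were also past 2-fold by the sum of the strands, in the same direction, 1 was past it the other way, and 4 passed 2-fold only with the added transcripts. Among the opposite-strand neighbours treated in the same way, 9 of 580 (1.55%) differed at least 2-fold, with a median size of 1.09-fold.

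Ratios moved with the percent of the shared bases that was assembled in the locus. For each locus, the percent of the pair's shared bases present in its own exons was compared between the libraries. Changes in the partner did not enter this percent. FPM counts fragments over assembled exons, so more of these bases assembled can by itself mean more FPM. That holds also for loci with a spliced transcript in both libraries. Where this percent was higher in hindwing by at least 50 points, 258 of 292 loci (88.4%) had more FPM in hindwing, with a median log2 ratio of 1.16 (quartiles 0.27 and 3.65), and 56.2% passed 2-fold. Where it was higher in forewing by at least 50 points, 28 of 246 loci (11.4%) had more FPM in hindwing, with a median of -1.36 (quartiles -4.21 and -0.35), and 58.9% passed 2-fold. A locus with no spliced transcript in a library has none of the shared bases and 0 FPM there, so that for such loci the change and the direction of the ratio are fixed together. Among loci with a spliced transcript in both libraries, 132 of 166 (79.5%) had more FPM in hindwing where the percent was higher in hindwing, with a median log2 ratio of 0.39, and 22.9% passed 2-fold. In the same kind of loci, 28 of 153 (18.3%) had more FPM in hindwing where it was higher in forewing, with a median of -0.59, and 34.0% passed 2-fold. Where it changed by less than 50 points, the median of 1016 loci was 0.01, 51.3% had more FPM in hindwing and 5.51% passed 2-fold.

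In 84 pairs the shared bases passed from one strand to the other between the wing buds, with a change of at least 50 points at both loci. The locus that held them had more fragments and its partner fewer in 65 of the 84, with median log2 ratios of 1.13 and -1.62. The sum of the strands had a median size of 0.21 on the log2 scale in these pairs, and 12 of the sums passed 2-fold. In the 31 of these pairs with spliced transcripts of both loci in both libraries, 19 had this direction at both loci, with medians of 0.27 and -0.70. The part of strand assignment in the ratios was not tested.

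**Figure D4:**
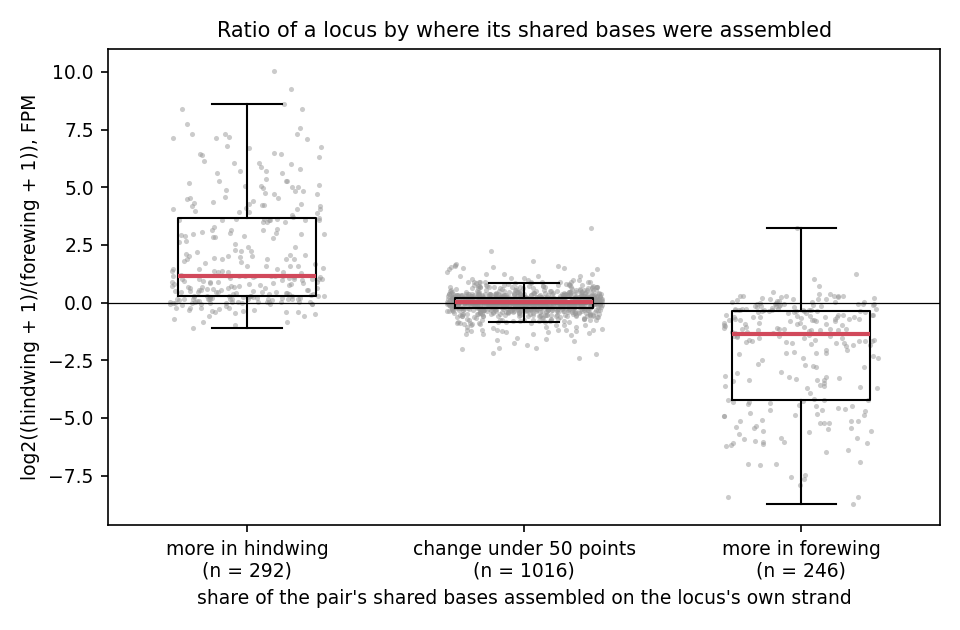
Log2((hindwing + 1)/(forewing + 1)) in FPM (y axis) of member loci, grouped by whether the percent of the pair's shared bases assembled in the locus was higher in hindwing by at least 50 points (292 loci), changed by less (1016) or was higher in forewing by at least 50 points (246). Points are loci, boxes span the quartiles, whiskers reach the farthest value within 1.5 box lengths, and the red medians lie at 1.16, 0.01 and -1.36. Loci with a spliced transcript in 1 library only are included, and without them the outer medians are 0.39 and -0.59.

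The bases of loci that had no spliced transcript in a wing bud were mostly covered by other transcripts there, and cover by the opposite strand is favoured by the rule that chose the pairs. Of the 98 members with no spliced transcript in hindwing, 83 (84.7%) had at least 50% of their exon bases covered in hindwing by transcripts of the opposite strand or without strand, and 2 had none covered. Of the 130 members with no spliced transcript in forewing, 94 (72.3%) were so covered in forewing, and 4 had none covered. Transcripts of the opposite strand by themselves covered 67 of the 98 and 73 of the 130, and transcripts without strand 30 of the 98 (30.6%) and 32 of the 130 (24.6%). For spliced loci in no pair, transcripts without strand covered 54.3% of 619 loci missing in hindwing and 32.2% of 642 missing in forewing.

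The longest overlap was a tail-to-tail pair on nscaf2210, in which a plus-strand locus (bases 3028585 to 3051001) and a minus-strand locus (bases 3029665 to 3065290) shared 21208 bases in 1 block. The overlap was assembled in both libraries, at 21208 bases in hindwing and 21203 in forewing. The plus-strand locus had 337 FPM (328 to 346) in hindwing and 458 FPM (447 to 469) in forewing, a log2 ratio of -0.44. The minus-strand locus had 328 FPM (315 to 341) in hindwing and 140 FPM (133 to 147) in forewing, a log2 ratio of 1.22. The intervals were apart at both loci, in opposite directions, while the sums were 665 FPM in hindwing and 598 FPM in forewing.

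The tail-to-tail pair with the most abundant lower locus in hindwing lay on nscaf2993, with 9840 shared bases between a plus-strand locus (bases 4765760 to 4777520) and a minus-strand locus (bases 4766840 to 4847646). In this pair the plus-strand locus had 763 FPM (746 to 779) in hindwing and 813 FPM (802 to 823) in forewing. The minus-strand locus had 1101 FPM (1086 to 1116) in hindwing and 868 FPM (853 to 884) in forewing. Both differences were under 2-fold with intervals apart, and they were again opposite.

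Of the head-to-head pairs, the longest overlap was on nscaf3031, 5841 bases between a plus-strand locus (bases 3325286 to 3333087) and a minus-strand locus (bases 3319197 to 3331960). It was assembled in hindwing only. The plus-strand locus had 20.3 FPM (18.7 to 22.0) in hindwing and 19.3 FPM (17.6 to 21.0) in forewing, and the intervals overlapped. The minus-strand locus had 11.1 FPM (9.95 to 12.3) in hindwing and no transcript in forewing. The most abundant head-to-head pair, on nscaf3110, shared 210 bases and held the highest member locus of all in both libraries. That minus-strand locus (bases 10593 to 26148) had 2541 FPM (2520 to 2562) in hindwing and 1955 FPM (1934 to 1976) in forewing. Its plus-strand partner (bases 25606 to 54910) had 744 FPM (732 to 755) in hindwing and 313 FPM (305 to 321) in forewing, but a transcript without strand at the same exons held a further 351 FPM in forewing and none did in hindwing. Here both strands leaned to the hindwing.

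Of the contained pairs, the longest overlap was on nscaf2273, where both loci spanned bases 4066 to 15371 and shared 11097 bases. On the plus strand the locus had 13.0 FPM (10.5 to 15.5) in hindwing and 19.0 FPM (14.9 to 23.0) in forewing. The minus-strand locus had 6.91 FPM (5.93 to 7.89) in hindwing and no transcript in forewing, and the sums were 19.9 FPM in hindwing and 19.0 FPM in forewing. The most abundant contained pair, on nscaf2800, had a minus-strand locus (bases 1347938 to 1350780) inside the end of a plus-strand locus (bases 1158121 to 1350780), with 2696 bases shared. The inner locus had 618 FPM (605 to 630) in hindwing and no transcript in forewing. The outer locus had 536 FPM (526 to 546) in hindwing and 1262 FPM (1240 to 1283) in forewing, and the total with transcripts without strand was 1416 FPM in hindwing and 1262 FPM in forewing.

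Where both strands leaned strongly to 1 wing bud, transcripts without strand stood in the other in most of the pairs named. There were 343 pairs in which both loci reached 5 FPM in a library and had intervals apart. In 286 of them (83.4%) the directions were opposite, with 26 pairs both higher in hindwing and 31 both higher in forewing. Over all 777 pairs, 515 were opposite. The filter was not applied to neighbours, and a locus with no spliced transcript in 1 library passes its interval part readily. At the first pair higher in hindwing, on nscaf2888, both loci spanned bases 8425701 to 8427162 and shared 1266 bases. The plus-strand locus had 15.7 FPM (13.9 to 17.4) and the minus-strand locus 11.1 FPM (9.73 to 12.4) in hindwing, and neither had a spliced transcript in forewing, where 1 transcript without strand held 30.2 FPM. At the next, on nscaf2176, a plus-strand locus (bases 1889495 to 1899453) lay inside a minus-strand locus (bases 1884937 to 1899453), and 11 introns of the plus-strand locus lay under exons of the minus-strand locus. Its inner, plus-strand locus had 60.4 FPM (55.0 to 65.7) in hindwing and 32.0 FPM (26.8 to 37.2) in forewing. The minus-strand locus had 17.0 FPM (15.4 to 18.6) in hindwing and 3.72 FPM (2.69 to 4.76) in forewing, at mean assembled lengths of 12593 and 3628 bases. A transcript without strand added 27.3 FPM in forewing, for totals of 77.3 FPM in hindwing and 63.0 FPM in forewing.

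At the first pair higher in forewing, on nscaf2674, the 3' ends of a plus-strand locus (bases 641167 to 677497) and a minus-strand locus (bases 674254 to 682029) shared 3244 bases. On the plus strand there were 7.80 FPM (6.75 to 8.85) in hindwing and 263 FPM (255 to 271) in forewing, at mean assembled lengths of 191 and 4339 bases. The minus-strand locus had no spliced transcript in hindwing and 178 FPM (171 to 185) in forewing. In hindwing, 5 transcripts without strand held 385 FPM over the same exons, so the totals were 393 FPM in hindwing and 441 FPM in forewing.

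The other pair higher in forewing, on nscaf2888, had no transcript without strand in either library. Its plus-strand locus (bases 9380351 to 9383876) had no spliced transcript in hindwing and 41.5 FPM (38.2 to 44.8) in forewing. Its minus-strand locus (bases 9381079 to 9384842) had 12.4 FPM (10.3 to 14.4) in hindwing and 41.8 FPM (38.8 to 44.8) in forewing. The mean assembled length of this minus-strand locus was 602 bases in hindwing and 3315 bases in forewing, so its lower hindwing level is that of a much shorter assembly. The tail-to-tail overlap of 2798 bases was assembled in forewing only, the total was 12.4 FPM in hindwing and 83.3 FPM in forewing, and its log2 ratio was -2.65.

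The pairs farthest apart in opposite directions had each strand in 1 library only. On nscaf2824, the plus-strand locus (bases 6852 to 30761) had 334 FPM (327 to 341) in hindwing and no transcript in forewing. The minus-strand locus inside it (bases 6852 to 15570) had no transcript in hindwing and 197 FPM (192 to 202) in forewing. With 180 FPM of a forewing transcript without strand, the totals were 334 FPM in hindwing and 377 FPM in forewing. On nscaf2809, the plus-strand locus (bases 85839 to 100297) had 158 FPM (150 to 166) in hindwing and no transcript in forewing. The minus-strand locus (bases 94753 to 100385) had no transcript in hindwing and 58.7 FPM (54.1 to 63.2) in forewing, and the totals with transcripts without strand were 158 FPM in hindwing and 128 FPM in forewing.

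**Figure D5:**
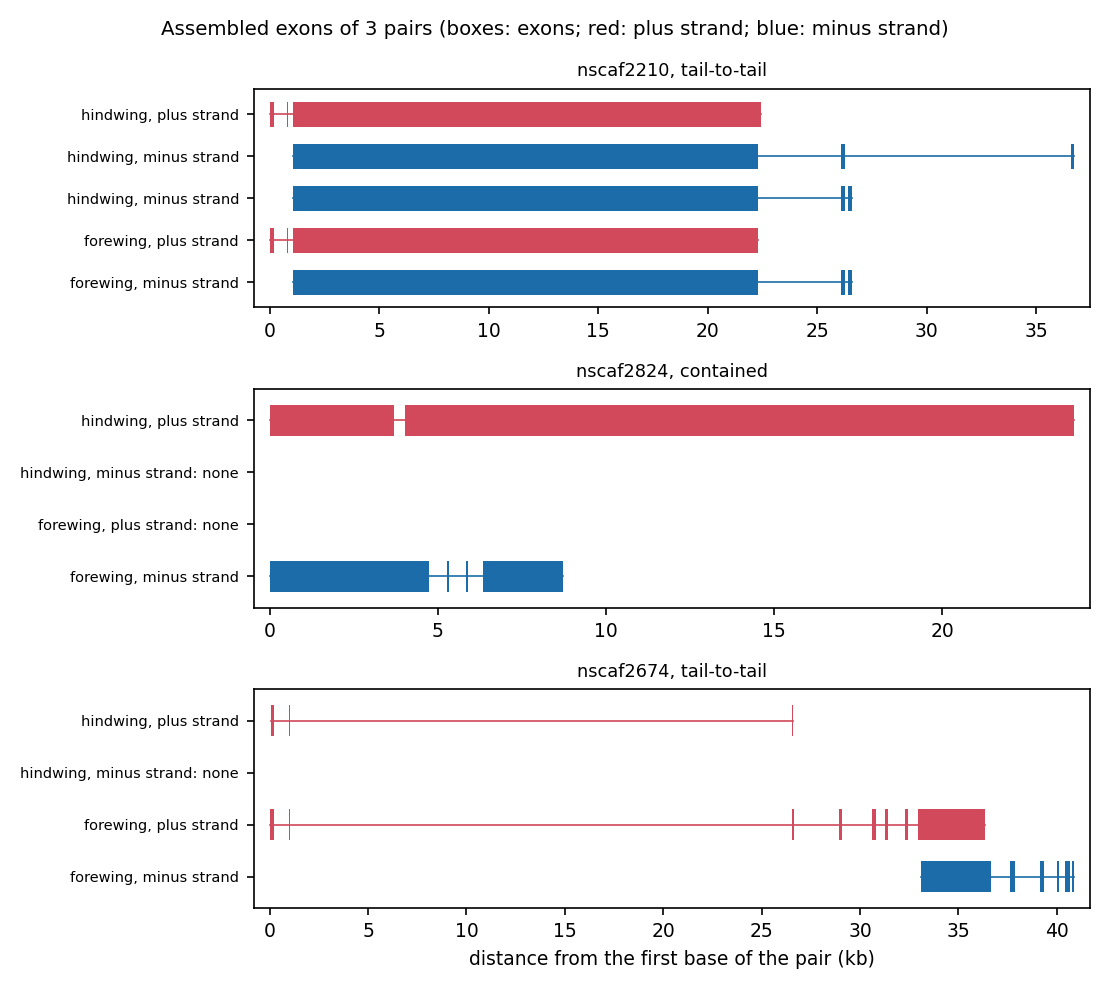
Assembled exons (boxes) and introns (lines) by library and strand of the pairs on nscaf2210, nscaf2824 and nscaf2674, by distance from the first base of the pair (x axis, kb), with every assembled spliced form on its own row, hindwing above forewing. The exon of about 21 kb on nscaf2210 is present on both strands in both libraries, nscaf2824 has the plus strand in hindwing and the minus strand in forewing, and the minus-strand locus of nscaf2674 has no spliced form in hindwing.

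Of the 10 pairs whose totals differed at least 2-fold, 3 had totals below 10 FPM in both libraries. Where the sum of the strands had passed 2-fold in the same direction, 1 pair was higher in hindwing and 4 were higher in forewing. The pairs named next were picked out after their values were seen. The most abundant was a tail-to-tail pair on nscaf1898 with 220 shared bases, with totals of 1331 FPM in hindwing and 306 FPM in forewing. Nearly all of it came from a short minus-strand locus of 283 exon bases (bases 8637908 to 8640632), with 1328 FPM (1294 to 1362) in hindwing and 279 FPM (265 to 293) in forewing. Its plus-strand partner (bases 8634519 to 8640569) had 3.32 FPM (2.57 to 4.07) in hindwing and 27.2 FPM (25.2 to 29.1) in forewing, so the minus strand leaned to the hindwing and the plus strand to the forewing. Among pairs above 10 FPM, the lowest ratio of totals was that of the nscaf2888 pair described above. A head-to-head pair on nscaf2887 (bases 597273 to 609459) had totals of 233 FPM in hindwing and 84.1 FPM in forewing, but its strands summed to 77.7 FPM in hindwing and 84.1 FPM in forewing, and the remaining 155 FPM in hindwing sat in transcripts without strand. Its plus-strand locus had no spliced transcript in hindwing and 62.2 FPM in forewing, and its minus-strand locus had 77.7 FPM in hindwing and 21.9 FPM in forewing. A tail-to-tail pair on nscaf3058 (bases 2663357 to 2702219) had totals of 85.8 FPM in hindwing and 186 FPM in forewing, with the plus-strand locus at 73.0 FPM in hindwing and 23.8 FPM in forewing and the minus-strand locus at 12.8 FPM in hindwing and 162 FPM in forewing. A tail-to-tail pair on nscaf2529 (bases 4888574 to 4916794) had totals of 82.4 FPM in hindwing and 168 FPM in forewing.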

How the data were processed

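RNA of 80 pooled hindwing buds and 80 pooled forewing buds was sequenced, 1 library each. Per the labels, total RNA was fragmented, primed with random hexamers and amplified by 11 cycles of PCR, without strand information. TopHat mapped the trimmed reads and Cufflinks assembled them, per the methods of the study (2.1.1 in the submitters' processing notes), and Cuffdiff, not used here, compared the wing buds. The deposited assemblies give each transcript the authors' FPKM, its bounds and coverage, per library and not scaled between libraries, and a score that was not used.

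Transcripts with at least 2 exons and a strand were joined into loci by shared exon bases. FPM is the midpoint of the deposited bounds times exon length in kb, summed over transcripts. This undoes the division by length in FPKM and counts fragments, not molecules. A locus assembled longer in a library can hold more fragments there, so ratios of FPM still carry differences in assembled length. Because the loci join both assemblies, pairs assembled unlike in the libraries are included, and partners with complementary gaps are favoured. Ratios added 1 FPM, kept pairs with both loci at 1 FPM or more in a library, and were called at 2-fold. Where a library had no spliced transcript its FPM was 0 and no fold is given.

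Depth was estimated from the bounds, which were whole fragments within 0.05 for 96.5% of 13353 hindwing and 96.1% of 8818 forewing bounds of low transcripts, and FPM summed to 97.3% and 97.5% of it. PCR copies were not marked.

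The named pairs were, per class, those with the longest overlap and with the highest lower locus in hindwing, then 2 with the largest smaller excess at both loci in hindwing, in forewing and in opposite directions, among pairs of at least 5 FPM with intervals apart. The members and this rule were chosen with earlier results of these data known. Sequences and gene names are not given, since the gene table at hand is of another assembly, ASM3026992v2, and shares no identifier with the deposited loci. The code, tested on simulated data with 450 planted pairs among 1200 loci, recovered 100% of them with class, overlap and ratio. Other scales, minima, overlap limits and sets of transcripts were tried. Scripts ran in Python 3.11.15 with scipy 1.17.1, numpy 2.4.6, matplotlib 3.10.9 and pandas 2.3.3.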

Additional observations from a re-analysis of the deposited data

How the results depend on the processing

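Across 16 alternatives the share of pairs leaning the same way was between 32.2% and 46.6%, below 50% in each, and Pearson's r was between -0.50 and -0.17, below 0 in each. Adding 0.1 or 5 FPM cannot change a direction, and leaving out introns common to both strands removed none, so these could not change the share. By FPKM the 46.6% stood beside 49.7% in tail-to-tail neighbours. Spearman's rho was -0.48 as reported, -0.11 by FPKM and by the midpoint without length, -0.26 for loci of like length and -0.25 for overlap lengths within 1.2 times. The share of members past 2-fold was 23%, against 14.1% of all spliced loci. It was 1.63% in pairs with both loci of like length, against 2.76% of all spliced loci of like length, taken singly. Members passed 2-fold in 5.27% for overlaps in both assemblies and in 2.02% for overlap lengths within 1.2 times. All spliced loci were not filtered in these ways, and 7.17% of those assembled in both libraries passed 2-fold. Compared with 795 pairs, 421 were left when the strands had to overlap in both assemblies, and the median overlap of 1930 bases was 2242 bases among those and 1754 bases in the hindwing assembly alone. Under the deposited FPKM in place of fragments, 46.6% of pairs leaned the same way, r was -0.17, 28.0% of members passed 2-fold and the higher locus exceeded the lower in hindwing by a median of 2.86-fold. Under the midpoint of the bounds without length these were 45.9%, -0.17, 27.0% and 2.82-fold, against 33.7%, -0.26, 23% and 2.1-fold as reported. Adding 0.1 FPM gave an r of -0.19, and adding 5 FPM gave -0.35 and 18.4% past 2-fold. Requiring 1 FPM in both libraries gave 38.8%, an r of -0.44 and 10.5% past 2-fold. Loci of like assembled length gave 42.2% and a 1.88-fold difference between partners. Pairs overlapping in both assemblies, chosen after seeing the data as were the next settings, gave 38.9%, an r of -0.50 and 1.89-fold. Pairs whose overlap lengths agreed within 1.2 times gave 43.3% and 1.89-fold. With the fragments of both strands added, 4.38% passed 2-fold. The share leaning the same way was thus higher, and below 50%, without pairs assembled unlike in the wing buds.

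No paired analysis was possible because each wing bud had 1 library. Leaving out a replicate does not apply. The intervals cover counting and assignment error only, and how fragments inside an overlap were shared between strands was not analysed here.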

Other observations

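Of the 30 loci with 2 partners each, 23 were on the plus strand and 7 on the minus strand. The farthest apart between the libraries with a transcript in both was a minus-strand locus on nscaf1898 (bases 1762461 to 1773485), with 342 FPM in hindwing and 35.2 FPM in forewing, a log2 ratio of 3.25. A plus-strand locus on nscaf2789 (bases 458483 to 493633) had 31.4 FPM in hindwing and 73.8 FPM in forewing, a log2 ratio of -1.21. Abundant loci of this kind with close levels included a plus-strand locus on nscaf2818 (bases 799131 to 811353), with 190 FPM in hindwing and 223 FPM in forewing, and a minus-strand locus on nscaf1898 (bases 4020405 to 4040811), with 103 FPM in hindwing and 113 FPM in forewing. These loci were picked out after their values were seen.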
